A study of Mus musculus with 60 samples.

Results

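H4K8ac peaks of the left and the right hippocampus of sedentary juvenile mice were set side by side, to ask which genes, annotation classes and acetylated domains were found in both hemispheres and which were found in one. The members were the peaks of the 2 lists that the labels name as H4K8ac, sedentary, separate isolation, left or right: 36425 left and 25159 right, 61584 of the 256375 peaks in the 12 lists of the series. Each hemisphere has 3 samples among the 60 of the series. The mice were male Emx1-NuTRAP animals kept in standard cages from postnatal day 21 to 41 with no running wheel, and all groups used here, exercised ones included, carried the same transgenes. Emx1-Cre turns on a tag of the nuclear envelope in cells of the Emx1 lineage, which in the hippocampus are mostly excitatory neurons. Whole hippocampi were used, with all subfields together. In the separate isolations each mouse supplied chromatin from a single side, its opposite hippocampus going to RNA, so that hemisphere and mouse cannot be told apart.

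H4K8ac is acetylation of lysine 8 on the tail of histone H4. Acetyl groups on this tail loosen its contact with DNA and are read by bromodomain proteins, and the mark is found at promoters, enhancers and bodies of genes in use. In hippocampal neurons, histone acetylation has been tied to synaptic plasticity and to memory. The rodent hippocampus is known for left-right differences at its synapses, in glutamate receptor subunits and in spine shape, and the immune molecule MHC class I has been linked to that asymmetry. CUT&RUN maps such a mark by releasing the DNA that an antibody holds inside intact nuclei. The lists give positions only, with no height, no p-value and no sample of origin, so each hemisphere is 1 value and no difference between hemispheres could be tested against the spread between mice. Intervals below are 95% intervals, of the Wilson kind for shares and symmetric for differences of shares. They cover only the counting error of peaks or genes. The read depth behind each list is unknown, since the study's methods give only a minimum per library. A peak present in one list may reflect more marked nuclei or more mark per nucleus, and these cannot be told apart.

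Promoter sequences of 4 genes show what the comparison is about: each is the 300 bases from 250 before to 50 after the RefSeq start (GRCm38.p6, the same build as mm10), 5′ to 3′ on the strand of the gene, with CpG dinucleotides in capitals. Neurod1, a proneural transcription factor of granule cells (chr2:79456587-79456886, minus strand), had this window inside a peak of both hemispheres. Srebf1, a regulator of lipid synthesis (chr11:60222532-60222831, minus strand), and Rps3, a protein of the small ribosomal subunit (chr7:99483660-99483959, minus strand), had it inside a left peak with no right peak. Tpgs1, a subunit of the tubulin polyglutamylase complex (chr10:79669189-79669488, plus strand), had it inside a right peak with no left peak. Neurod1 and Rps3 belong to gene lists described further on, and Srebf1 to the widest left peaks. Tpgs1 was taken after its value was seen. Its peak was the widest among the few windows of the right list alone whose sequences were drawn. It is not given as the widest of the whole right list.
Neurod1 (both): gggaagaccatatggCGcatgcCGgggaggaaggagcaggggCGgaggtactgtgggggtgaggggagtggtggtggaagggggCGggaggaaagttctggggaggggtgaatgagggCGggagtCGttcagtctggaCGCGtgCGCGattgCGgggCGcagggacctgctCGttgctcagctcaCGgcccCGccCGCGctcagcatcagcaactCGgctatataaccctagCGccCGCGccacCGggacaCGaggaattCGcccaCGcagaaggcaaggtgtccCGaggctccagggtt
Srebf1 (left): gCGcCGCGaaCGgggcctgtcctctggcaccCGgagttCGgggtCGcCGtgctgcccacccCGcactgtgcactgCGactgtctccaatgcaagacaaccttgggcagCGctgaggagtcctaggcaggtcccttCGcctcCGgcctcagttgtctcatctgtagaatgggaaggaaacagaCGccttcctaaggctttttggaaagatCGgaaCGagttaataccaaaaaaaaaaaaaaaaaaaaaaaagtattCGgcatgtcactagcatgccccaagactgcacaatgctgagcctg
Rps3 (left): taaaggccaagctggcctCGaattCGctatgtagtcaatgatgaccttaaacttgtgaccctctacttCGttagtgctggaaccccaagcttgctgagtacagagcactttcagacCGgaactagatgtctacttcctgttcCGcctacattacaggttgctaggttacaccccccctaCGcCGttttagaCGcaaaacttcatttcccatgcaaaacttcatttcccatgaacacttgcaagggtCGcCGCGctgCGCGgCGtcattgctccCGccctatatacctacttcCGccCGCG
Tpgs1 (right): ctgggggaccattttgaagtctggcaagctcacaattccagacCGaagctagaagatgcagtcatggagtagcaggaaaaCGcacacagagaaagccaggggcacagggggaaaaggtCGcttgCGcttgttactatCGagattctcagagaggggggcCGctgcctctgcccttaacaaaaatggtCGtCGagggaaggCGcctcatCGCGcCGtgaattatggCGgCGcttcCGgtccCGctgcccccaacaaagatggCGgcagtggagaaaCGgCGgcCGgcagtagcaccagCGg
The Neurod1 window held 26 CpGs, the Rps3 window 18, the Srebf1 window 17 and the Tpgs1 window 21, against a median of 7 over all 32817 RefSeq promoter windows. At Neurod1 the left peak spanned 4333 bp and the right peak 5327 bp. The left peak at Srebf1 spanned 4935 bp, the left peak at Rps3 1830 bp and the right peak at Tpgs1 3301 bp.

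Before the hemispheres were compared, the lists were examined by chromosome, because the left list was not of one kind along the genome. On each of chromosomes 1 to 14 the median left peak was between 1381.5 and 1630 bp wide. On chromosomes 15 to 19 and X it was between 1134 and 1211 bp, so the ranges did not overlap. Over chromosomes 15 to 19 the median left width was 0.777 of that over chromosomes 1 to 14. The same ratio was 0.955 in the right list and 0.979 in the sedentary list of SIT, the simultaneous isolation of nuclei and RNA from both hippocampi in one tube. Among the other lists it was 0.890 in exercised SIT mice and as low as 0.747 in the H3K27me3 list of the exercised right hippocampus, so such a step was not particular to the left list. The left list also overlapped less of the right list there: 63.4 to 71.6% of right peaks were overlapped on chromosomes 1 to 14, 45.5 to 52.3% on chromosomes 15 to 19 and 10.9% on X. The SIT list overlapped right peaks to similar extents in both sets of autosomes, 43.9 to 58.3% on chromosomes 1 to 14 and 50.1 to 57.4% on chromosomes 15 to 19, but 29.1% on X. Within chromosome 14, the left list overlapped 61.6 to 72.4% of right peaks in 20-Mb windows up to 80 Mb and 52.8 to 58.2% beyond, while the left peaks stayed wide up to 120 Mb. The cause of this step was not tested, and the results below are given over all chromosomes and, where it matters, over chromosomes 1 to 14 alone.

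**Figure D1:**
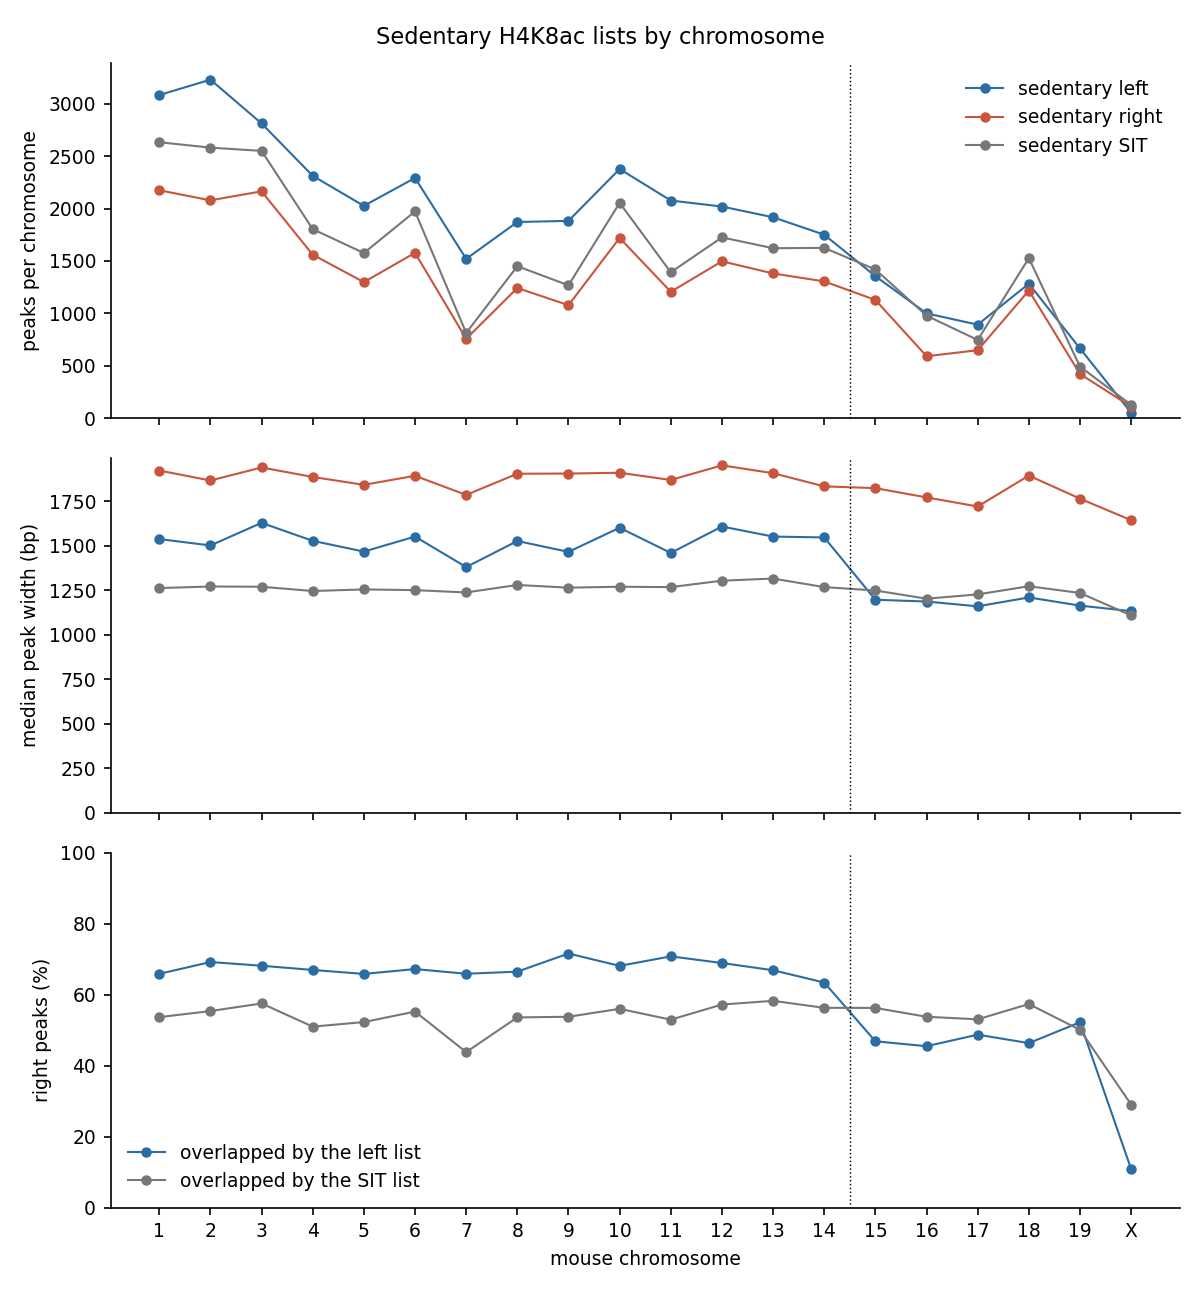
Peaks per chromosome, median peak width in bp and the share of right peaks overlapped by the left or the SIT list, for the sedentary H4K8ac lists, each point being one chromosome and the dotted line lying between chromosomes 14 and 15. The left median width was at least 1381.5 bp on chromosomes 1 to 14 and at most 1211 bp on the others, with no such step in the right or SIT list.

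The number of peaks also differed between chromosomes. The left list held 1.30 to 2.01 times as many peaks as the right on chromosomes 1 to 14, with the highest ratio on chromosome 7 (1520 against 757 peaks). On chromosome 18 the lists were nearly equal, with 1283 left and 1218 right peaks. On X the right list was longer, with 51 left and 110 right peaks. In all, left peaks covered 65.9 Mb with a median width of 1452 bp, and right peaks covered 56.1 Mb with a median width of 1879 bp, so the left list held more and narrower peaks.

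Whether a peak was found in the other hemisphere went with its width. Of left peaks, 16834 were overlapped by at least 1 base of a right peak and 19591 were not. Of right peaks, 16127 were overlapped and 9032 were not. The overlapped left peaks had a median width of 1925.5 bp and the others 1261 bp, and for the right list the medians were 2061 and 1701.5 bp. Among left peaks of 1000 to 1500 bp, 29.6% were overlapped (interval 28.8 to 30.3%). Among those of 2000 to 3000 bp the share was 69.2% (68.0 to 70.3%), and among those of 3000 to 5000 bp it was 88.6% (87.4 to 89.7%). Right peaks of the same classes were overlapped in 52.5% (51.2 to 53.8%), 71.1% (70.0 to 72.1%) and 89.7% (88.6 to 90.7%). Over all chromosomes the hemispheres differed by under 2 percentage points in the classes above 2000 bp, and between 1000 and 1500 bp the right peaks were overlapped more often.

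On chromosomes 1 to 14 the left list overlapped 67.6% of right peaks (66.9 to 68.2%), and on chromosomes 15 to 19 and X 46.4% (44.9 to 48.0%). The difference held at equal widths. Right peaks of 3000 to 5000 bp were overlapped in 92.6% on the first set (91.5 to 93.5%) and in 70.9% on the second (66.4 to 75.1%). Left peaks of that class were overlapped in 88.8% (87.6 to 89.9%) and 84.4% (76.4 to 90.0%). With the overlapped peaks included, 68.4% of left peaks had a right peak within 10000 bp, and 81.6% of right peaks had a left peak within that distance.

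**Figure D2:**
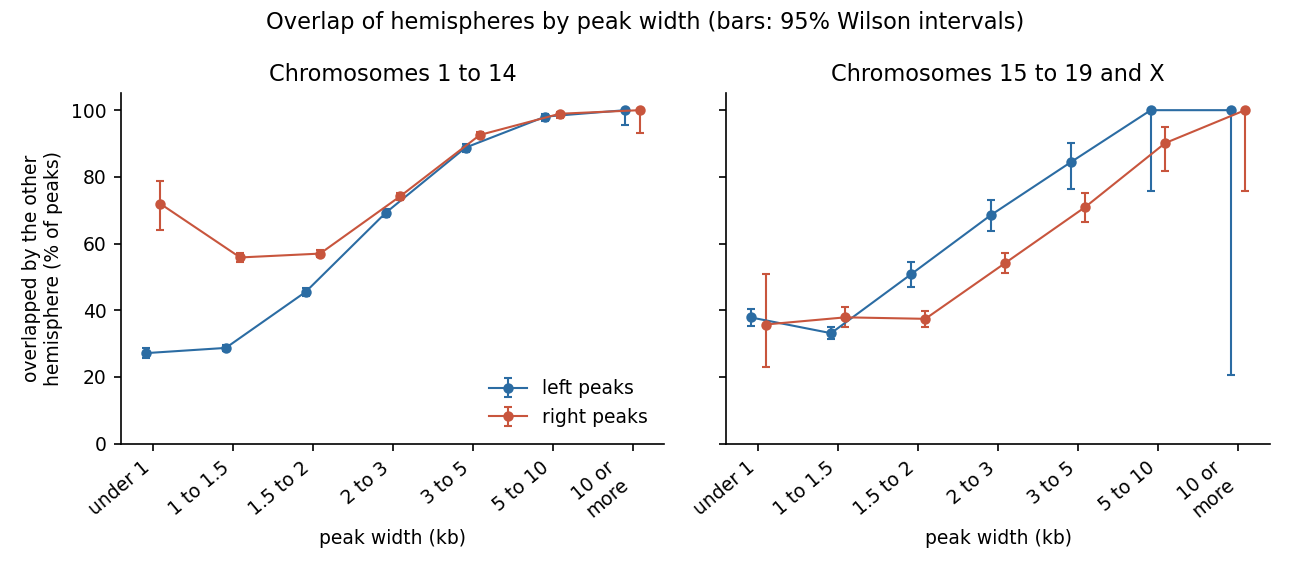
Share of left and right H4K8ac peaks overlapped by the other hemisphere, by peak width in kb, on chromosomes 1 to 14 and on the remaining ones, with bars for 95% Wilson intervals. On chromosomes 1 to 14 right peaks of 2 to 3 kb are overlapped in 74.1% and left ones in 69.2%, both lists reach 100% at 10 kb, and on chromosomes 15 to 19 and X right peaks of 3 to 5 kb are overlapped in 70.9%.

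Joined where they overlapped, the lists gave 43774 regions, of which 15151 held a peak of both hemispheres, or 34.6%. Of these, 13127 paired one left with one right peak, 1156 held several left peaks under one right peak, and 544 held several right peaks under one left peak. In the one-to-one pairs of chromosomes 1 to 14 the median width was 2041 bp on the left and 2009 bp on the right, and the right peak was wider in 53.0%. The centres of a pair lay a median of 362.25 bp apart, and 43.5% of pairs had one peak wholly inside the other. On chromosomes 15 to 19 and X the median widths were 1252 and 1911 bp, and the right peak was wider in 81.6% of pairs.

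Nearly all of the widest domains touched a peak of the other hemisphere. Of left peaks of 5000 bp or more, 757 of 770 were overlapped by a right peak, or 98.3% (97.1 to 99.0%), and of such right peaks 782 of 797 were overlapped, or 98.1% (96.9 to 98.9%). When each peak had to cover 50% of the other, the shares were 67.3% and 61.2%. All 82 left and all 65 right peaks of 10000 bp or more had a partner. The counts of broad peaks were alike on chromosomes 1 to 14, with 757 left and 704 right, but not on chromosomes 15 to 19 and X, with 13 left and 93 right. Broad peaks were given to 508 genes on the left and 559 on the right, and 295 genes had one in both lists, 58.1% of the left and 52.8% of the right genes. Of left broad peaks 27.8% were at promoters and of right broad peaks 25.7%.

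The widest region with a peak in both lists, 38877 bp at Bcl11a, a transcription factor of cortical and hippocampal neurons (chr11:24080849-24119725), held 5 left peaks adding to 35.4 kb and 4 right peaks adding to 33.6 kb. At Tcf4, a basic helix-loop-helix factor of forebrain neurons (chr18:69555328-69590794), one right peak of 35.5 kb lay over 7 left peaks adding to 17.1 kb. A region of 30467 bp at C130071C03Rik, a long non-coding RNA gene (chr13:83711442-83741908), held 3 peaks of each list, of 27.9 kb left and 27.6 kb right. Pla2g4a, a cytosolic phospholipase (chr1:149850482-149878812), had 26.5 kb left and 26.02 kb right. An intergenic domain assigned to Ccnh, a cyclin (chr13:84739531-84767375), had 26.8 kb left and 25.1 kb right. In 4 of these 5 widest regions the hemispheres differed by under 2 kb, and in the region on chromosome 18 the left list covered less of the stretch, in several peaks.

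Some wide peaks lay far from any peak of the other hemisphere. Among the 5 widest left peaks with no right peak within 10000 bp were those in an exon of Ppfia2, a liprin of the presynaptic active zone (5561 bp, chr10:106859936-106865496), and at the promoters of Srebf1 (4935 bp), Nova2, a neuronal splicing factor (4830 bp, chr7:18920519-18925348), and 4930555B11Rik (4710 bp). The 5 widest right peaks with no left peak within 10000 bp were in introns of Cables1, a partner of Cdk5 (5672 bp, chr18:11896019-11901690), and Osbpl1a, an oxysterol-binding protein (5251 bp, chr18:12782198-12787448), in an intron of another gene, assigned to Kcnj3, a potassium channel (5538 bp, chr2:55088196-55093733), in a 3′ UTR of Mdga2, a synaptic adhesion modulator (5292 bp, chr12:66468614-66473905), and in an intergenic stretch assigned to Defb41 (5189 bp, chr1:18458915-18464103). Of these, 4 of the left peaks were at promoters and none of the right peaks was, a count on 5 peaks of each list. Over all peaks not overlapped by the other list, promoters held 22.8% on the left and 19.7% on the right.

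Over all peaks, the annotation classes of the lists were close at promoters and apart in introns and intergenic DNA. Promoters, within 3 kb of a start, held 24.3% of left peaks (23.9 to 24.8%) and 24.1% of right peaks (23.6 to 24.6%). Introns held 39.0% of left peaks (38.5 to 39.5%) and 34.6% of right peaks (34.1 to 35.2%), 4.37 points more on the left. Distal intergenic DNA held 25.95% of left (25.5 to 26.4%) and 29.8% of right peaks (29.3 to 30.4%). On chromosomes 1 to 14 the intron difference was 4.08 points and the intergenic difference -3.80 points. When the left list was reduced to its widest peaks, to the number of the right list, the intron difference was 2.39 points. Among the widest 50% of each list the promoter difference was 1.93 points (0.960 to 2.90), the intron difference 1.27 points (0.187 to 2.35) and the intergenic difference -2.43 points (-3.46 to -1.41).

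The classes were also counted with and without a partner. Overlapped left and right peaks are largely the same places, so their shares are alike by construction: 26.1% of left and 26.6% of right overlapped peaks were at promoters, 34.2% and 33.2% in introns, and 28.5% and 28.4% in distal intergenic DNA. Left peaks with no right peak were in introns in 43.1% (42.5 to 43.8%) and in distal intergenic DNA in 23.8% (23.2 to 24.4%). Right peaks with no left peak were in introns in 37.3% (36.3 to 38.3%) and in distal intergenic DNA in 32.5% (31.5 to 33.4%). The part of the promoter class nearest the start, within 1 kb, held 21.2% of overlapped left and 21.9% of overlapped right peaks, 16.4% of left peaks alone and 15.8% of right peaks alone. The flank from 1 to 2 kb held 3.36% of left peaks alone (3.12 to 3.63%) and 2.08% of right peaks alone (1.81 to 2.397%).

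**Figure D3:**
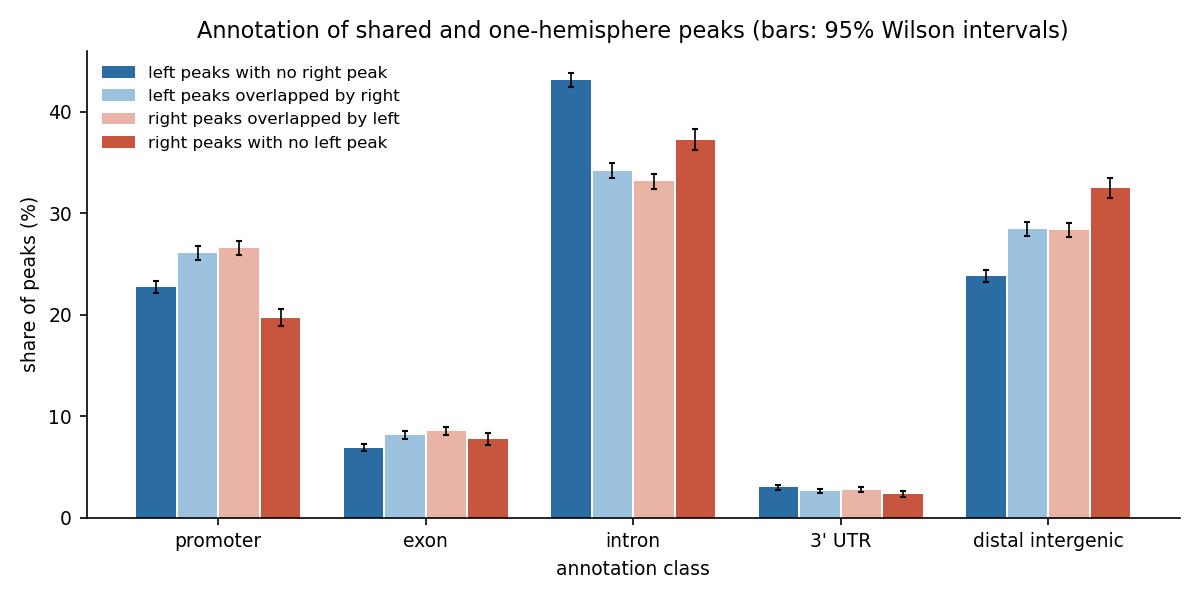
Share of peaks in each annotation class for left peaks without and with a right partner and right peaks with and without a left partner, over all chromosomes, with bars for 95% Wilson intervals. Overlapped peaks of both lists, being largely the same places, have like shares, while introns hold 43.1% of left peaks alone and distal intergenic DNA holds 32.5% of right peaks alone.

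With all annotation classes together, base composition separated overlapped peaks from others more than left from right. Median GC content was 44.5% in overlapped left and 44.7% in overlapped right peaks, 43.3% in left peaks alone and 43.1% in right peaks alone. CpGs numbered 11.2 and 11.4 per kb in overlapped left and right peaks and 9.46 and 9.54 per kb in left and right peaks alone. Among promoter peaks this did not hold, with 19.6 and 20.5 per kb in overlapped left and right peaks. There, left peaks alone had 17.1 and right peaks alone 19.9 per kb. Repeats masked in the reference made up a median of 15.7 to 16.3% in all 4 sets. Distance to the assigned start was 20.2 and 20.3 kb for overlapped left and right peaks, 20.5 kb for left peaks alone and 27.5 kb for right peaks alone.

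Of the 32817 RefSeq promoter windows of 300 bases, 2616 were touched by both lists (7.97%), 2193 by the left list alone (6.68%) and 1338 by the right list alone (4.08%). The median number of CpGs was 15 in windows of both, 19 in windows of the left list alone, 15 in windows of the right list alone and 6 in windows of neither. The GC box, GGGCGG on either strand, was in 1235 of the 2616 windows of both, 1250 of the 2193 of the left alone and 691 of the 1338 of the right alone, and in 35.6% of all windows. The cAMP response element TGACGTCA was in 3.59% of windows of both (94 windows), 2.78% of the left alone (61) and 1.35% of the right alone (18), against 1.79% of all windows. The E-box CAGATG, searched on both strands, was in 14.8, 13.45 and 14.4% of these windows and in 17.2% of all. These are counts of letters in a window and say nothing of binding.

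Genes were sorted by the symbols assigned to the peaks. Many genes were in neither list, as RefSeq held 26994 genes with a promoter window. Of 11351 genes in either list, 7189 were in both (63.3%), 3032 in the left list alone (26.7%) and 1130 in the right list alone (9.96%). On chromosomes 1 to 14 the shares were 65.0% both, 26.8% left and 8.20% right, and on chromosomes 15 to 19 and X they were 55.9% both, 26.2% left and 17.9% right. The number of genes in one list alone depended on which left peaks were kept. When the left list was reduced to its widest peaks, to the number of the right, 1923 genes were in the left list alone and 1924 in the right list alone.

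Genes found in one hemisphere were mostly genes with a single peak. Of the left genes 76.3% had 1 peak, as did 88.9% of the right genes. A gene with 1 left peak was found in the right list in 51.5% (50.04 to 52.9%), and a gene with 10 or more left peaks in 99.7% (99.1 to 99.9%), with 2 exceptions, Arhgap21 and Gabra5. A gene with 1 right peak was found in the left list in 75.9% (74.6 to 77.2%), and all 467 genes with 10 or more right peaks were. Genes in both lists were also longer, with a median RefSeq span of 31.8 kb against 21.3 kb for left genes and 19.03 kb for right genes. Being in both lists did not always mean the same region, since 797 of the 7189 genes (11.1%) had no left peak that touched a right peak.

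The 10 genes of the left list alone with the greatest summed peak width had between 4 and 10 left peaks each. Arhgap21, a GTPase-activating protein of small GTPases (chr2:20847919-20968691), had 10 peaks adding to 15.3 kb, 3 of them at promoters. Gabra5, the α5 subunit of the GABA-A receptor found mainly in hippocampus (chr7:57407669-57591016), had 10 peaks adding to 12.7 kb, 4 at promoters, and none lay within 10 kb of a right peak. Nsf, the ATPase that takes SNARE complexes apart after vesicle fusion (chr11:103821782-103954056), had 9 peaks of 11.7 kb in all. Then came Cdc42bpa, a kinase bound by Cdc42, with 10.3 kb, Marchf4, a ubiquitin ligase, with 10.2 kb, Raph1, an actin regulator of growth cones, with 9.88 kb, Arid1b, a subunit of the BAF chromatin remodelling complex, with 9.69 kb, and Rap1gds1, a regulator of small GTPases, with 9.45 kb. The 2 others were Mir5623 (12.8 kb) and 2810405F15Rik (9.97 kb), named as the nearest annotated genes. Of the 10, 9 were also listed in sedentary SIT mice, with Arhgap21 the exception, beside 37.2% of all left genes, most of which had 1 peak.

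The 10 genes of the right list alone had between 3 and 5 right peaks each. Trps1, a zinc-finger repressor (chr15:50654757-50890631), had 4 peaks adding to 11.03 kb, all in its body and the nearest 11.4 kb from its start. Sncaip, which encodes synphilin-1 (chr18:52767811-52915935), had 5 peaks of 8.74 kb in all, Cables1 had 3 of 8.63 kb, and Gnal, a G protein α subunit that couples receptors to adenylyl cyclase (chr18:67088298-67226792), had 4 of 7.53 kb. Notch1, the receptor of the Notch pathway (chr2:26457902-26503822), had 3 peaks of 6.51 kb, and Fundc1, a mitophagy receptor of the outer mitochondrial membrane (chrX:17519967-17572329), had 3 of 6.36 kb. The others were Gm29686 (9.59 kb), Vmn2r7 (7.99 kb), Mir3099 (6.72 kb) and 1700063A18Rik (6.33 kb). Of these 10 genes, 6 lay on chromosomes 15 to 19 or X, where the left peaks were narrow, against 2 of the 10 genes of the left list. In sedentary SIT mice 8 of these 10 were listed, Cables1 and Fundc1 being absent, beside 49.9% of all right genes.

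Genes in both lists were ranked by the smaller of their summed widths, which picks genes with long acetylated stretches in both. By the smaller of the 2 summed widths, the top gene was Anks1b, a postsynaptic scaffold protein, with 193 kb left and 162 kb right, followed by 5730522E02Rik (171 and 152 kb), Celf2, an RNA-binding splicing factor (252 and 150 kb), Tcf4 (127 and 221 kb) and Snd1, a co-activator and nuclease (139 and 126 kb). The remaining 5 were Cdh11, a cadherin (186 and 122 kb), St6galnac3, a sialyltransferase (150 and 120 kb), Prkd1, protein kinase D1 (125 and 118 kb), Magi2, a synaptic scaffold (151 and 107 kb), and Bcl11a (107.7 and 105.5 kb). Across the 7189 genes the summed widths went together with a Spearman rho of 0.77, a description over genes that share list and gene length. The summed width was at least 2-fold higher on the left in 905 genes (12.6%) and on the right in 661 (9.19%).

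The direction of the difference in summed width depended on the chromosome. On chromosomes 1 to 14 the median left-to-right ratio was 1.12 over 6043 genes, with 807 genes 2-fold or more higher on the left (13.4%) and 397 on the right (6.57%). On chromosomes 15 to 19 and X it was 0.748 over 1145 genes, with 98 genes 2-fold or more higher on the left (8.56%) and 263 on the right (23.0%). The 5 genes with the greatest left excess were Celf2 (102 kb more on the left), Dlg2, a postsynaptic scaffold also called PSD-93 (85.6 kb, with 90 left and 30 right peaks), Cdh11 (63.8 kb), Dab1, the adaptor of Reelin signalling (62.4 kb, with 72 left and 28 right peaks), and Tenm2, a teneurin adhesion protein (46.9 kb), all on chromosomes 2 to 11. The 5 with the greatest right excess were Tcf4 (-93.5 kb, left minus right), Celf4, an RNA-binding protein of excitatory neurons (-62.0 kb), Mir99ahg, a non-coding host of microRNAs (-28.8 kb), Nedd4l, a ubiquitin ligase (-26.8 kb), and Cdh9, a cadherin of mossy fibre synapses (-26.7 kb), all on chromosomes 15, 16 and 18. Of the 20 greatest right excesses, 15 were on chromosomes 15 to 19 or X, against 1 of the 20 greatest left excesses, while 15.9% of genes in both lists lay there. Within chromosomes 1 to 14 the greatest right excesses were at 4930524C18Rik (-25.9 kb) and Olfm4 (-25.4 kb), both on chromosome 14, then Pantr1 (-20.6 kb), a non-coding neuronal RNA, St18 (-19.9 kb), a zinc-finger factor, and Ndst4 (-18.4 kb), a heparan sulphate enzyme.

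**Figure D4:**
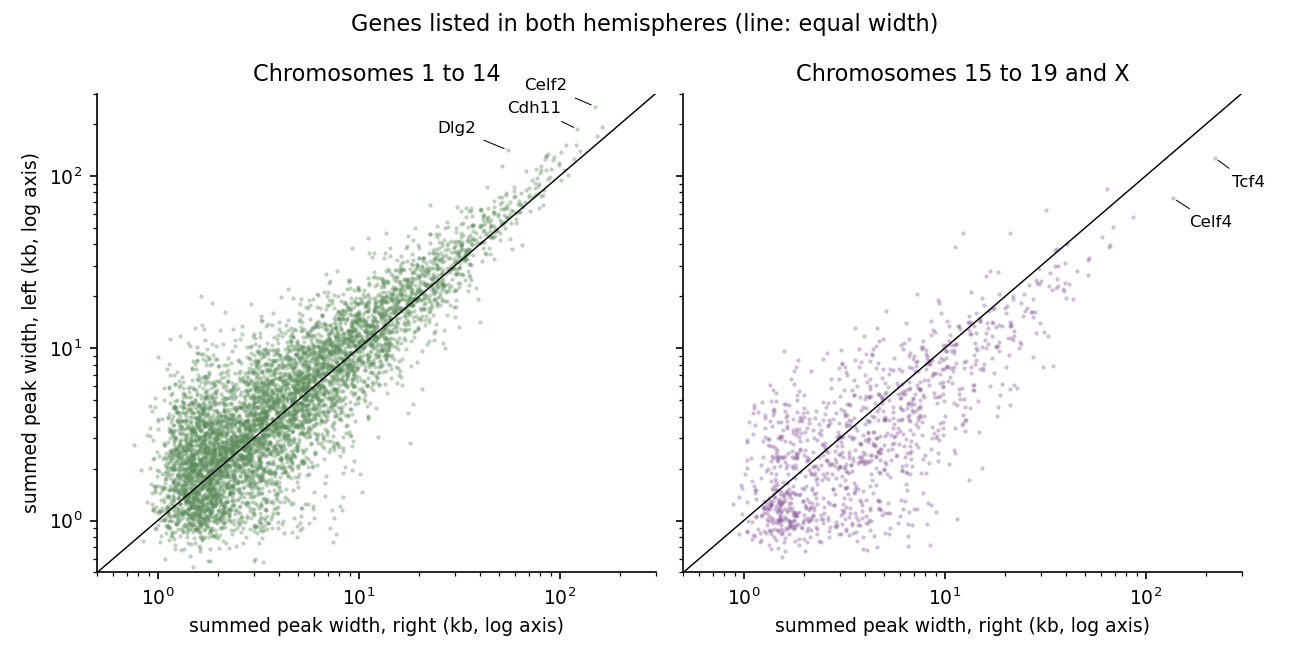
Summed width of left peaks against that of right peaks, in kb on log axes, for each gene listed in both hemispheres, on chromosomes 1 to 14 and on chromosomes 15 to 19 and X, with a line at equal width. The median left-to-right ratio is 1.12 in the first panel and 0.748 in the second, where Tcf4 and Celf4 lie below the line.

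The tagged cells were checked against marker genes. All 14 markers of excitatory neurons were in both lists, beside 63.3% of all genes, among them Emx1, Slc17a7, Camk2a, Camk2b, Neurod1, Neurod2, Neurod6, Tbr1, Bcl11b, Nrgn, Zbtb18 and Mef2c. Their peaks added to 217 kb on the left and 202 kb on the right, with a median left-to-right ratio of 1.01 and 8 genes higher on the left and 6 on the right, beside 1.07 and 55.0% higher on the left over all genes in both lists. Zbtb18, a repressor in projection neurons, had 47.1 kb left and 46.9 kb right. The activity-dependent factor Mef2c had 47.8 kb left and 44.8 kb right. Camk2b, a calmodulin-dependent kinase subunit, had 18.1 kb left and 9.93 kb right. None of the 39 Hox genes, silent in forebrain, had a peak in either list. Over all genes, 11351 were in either list, beside 26994 RefSeq genes with a promoter window. The 3 left peaks given to Emx1 (chr6) added to 5.95 kb and the 3 right peaks to 5.55 kb, with 1 overlapping pair. That pair lay in an intron of another gene, 23.7 kb (left) and 25.3 kb (right) from the Emx1 start. The promoter-class peaks of the 2 lists were 827 bp apart, and neither list touched the RefSeq promoter window of Emx1.

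Markers of hippocampal subfields were in both lists in 11 of the 16 genes listed, in the left alone in 4 and in the right alone in 1, near the 63.3, 26.7 and 9.96% over all genes, and 4 more of the 20 were in neither. The left ones were Rgs14, a CA2 signalling protein (2 peaks, 4.10 kb), Spock1 (1.22 kb), Wfs1, a CA1 marker (0.984 kb), and Iyd (0.936 kb), and the right one was Fibcd1 (1.26 kb), each with 1 peak other than Rgs14. The greatest widths were at Pdzd2 (23.9 kb left, 28.9 kb right), Grik4, a kainate receptor subunit rich in CA3 (28.3 and 15.5 kb), Calb1, calbindin (11.7 and 12.5 kb), and Lct (9.15 and 13.95 kb). Prox1, the granule cell factor, had 3 peaks in each list, adding to 3.17 kb left and 4.31 kb right, but no left peak touched a right one.

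Markers of other cells that the nuclei could include were counted in the same way, and each split below stands beside 63.3% in both, 26.7% in the left alone and 9.96% in the right alone over all genes. Of 16 interneuron genes, Gad1 (2 peaks, 3.23 kb), Npy (3 peaks, 3.19 kb) and Vip (1.37 kb) were in the left list alone, Reln (1.84 kb) in the right alone, Dlx2 (6.59 kb left, 4.01 kb right) and Adarb2 (8.33 and 10.9 kb) in both, and 10 in neither, among them Gad2, Slc32a1, Pvalb and Sst. None of the 16 had a promoter peak. Of 10 astrocyte genes, Gfap (1.06 kb), Gja1 (1.86 kb), S100b (1.66 kb) and Fgfr3 (0.945 kb) were in the left list alone, none in the right alone, and Slc1a2 (24.2 kb left, 20.9 kb right), Aqp4 (6.12 and 22.2 kb), Slc1a3 (2.79 and 7.23 kb) and Aldh1l1 (1.16 and 2.12 kb) in both, with Sox9 and Aldoc in neither. Of the 8 listed, 4 were thus of the left list alone, against the 26.7% over all genes, and the summed width was 39.8 kb left and 52.4 kb right, the last resting on Aqp4 of chromosome 18. Whether astrocyte nuclei had a part in left peaks was not tested. Of 12 oligodendrocyte genes, Mbp (23.9 kb left, 39.8 kb right) and Cspg4 (3.34 and 4.51 kb) were in both, Myrf (0.801 kb) in the left alone, Mog (3.22 kb) in the right alone, and 8 in neither, among them Mag, Mobp, Cnp, Olig1, Olig2, Sox10 and Pdgfra. Of 14 genes of microglia and vessels, P2ry12 (8.65 and 1.964 kb), Pecam1 (8.74 and 4.61 kb), Kdr (4.87 and 3.12 kb) and Cdh5 (9.61 and 10.4 kb) were in both, C1qa and C1qb in the left alone, 2 in the right alone, among them Aif1 (whose right peak touched a left peak given to another gene), and Cx3cr1, Tmem119, Csf1r, Cldn5, Flt1 and Tek in neither.

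Glutamate receptors bind the main excitatory transmitter of hippocampal synapses. Of 25 genes, 19 were listed, 16 in both, 3 in the left alone and none in the right alone, beside 63.3, 26.7 and 9.96% of all genes, with 526 kb left and 321 kb right in all. Of the 16 in both, 11 had more on the left and 5 on the right, and the median left-to-right ratio was 1.54. Over all genes in both lists, 55.0% had more on the left, with a median ratio of 1.07. Of the 15 on chromosomes 1 to 14, 10 had more on the left with a median ratio of 1.52, beside 59.5% and 1.12 over all genes there. The greatest stretches were at Grik2, a kainate receptor subunit (130 kb left, 85.2 kb right), Gria2, the AMPA receptor subunit that sets calcium permeability (94.3 and 72.9 kb), Grm7, a presynaptic metabotropic receptor (86.2 and 43.4 kb), and Gria1, the AMPA receptor subunit (65.7 and 30.7 kb, with 40 left and 16 right peaks). The genes of the left list alone had 1 peak each: Grm8 (2.05 kb), Grm4 (1.11 kb, at its promoter) and Gria4 (1.03 kb). Grin2b, the NMDA receptor subunit for which left-right differences at hippocampal synapses are known, had 3 peaks in each list, adding to 10.4 kb left and 6.69 kb right. Grin2a, on chromosome 16, had 17 left peaks of 20.7 kb and 5 right peaks of 7.25 kb. The whole chromosome held 1000 left and 591 right peaks.

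Genes tied to asymmetry itself came from 2 lists. Over all genes absence was common, with 11351 genes in either list beside 26994 RefSeq genes with a promoter window. Of 8 genes of MHC class I and its partners in hippocampal asymmetry, 7 had no peak in either list: B2m, H2-K1, H2-D1, Tap1, Tap2, Tapbp and Pirb. The other one, Dnah11, a ciliary dynein, had 2 left peaks of 2.74 kb and 1 right peak of 1.54 kb, which did not touch. Of 13 genes that set body laterality, 8 were in neither list, which was common over all genes as well. Among these 8 were Nodal, Lefty1, Lefty2, Cfc1, Pkd1l1, Acvr2b and Foxh1. Among the 3 in both were Dand5 (2.60 kb left, 3.52 kb right) and Pkd2 (4.30 and 3.36 kb). Gdf1 (0.934 kb) and Foxj1, a factor of ciliated cells (1.55 kb), had 1 left promoter peak each and no right peak by symbol, so that the 5 listed split into 3 in both and 2 in the left alone, near the 63.3 and 26.7% of all genes. A further RefSeq start of Gdf1 lay under a left peak of 907 bp and a right peak of 2476 bp, both of which bore another symbol.

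Immediate early genes, which neurons switch on with activity, were in both lists in 14 of the 18 genes listed, with Fos, Egr2 and Arc in the left alone and Jund in the right alone, beside 63.3, 26.7 and 9.96% of all genes, and Egr4 was in neither. The peaks that set these 4 apart were single peaks outside the promoter. The left peak given to Fos was 1690 bp wide and 17.6 kb from its start (chr12:85454642-85456331), that given to Arc 1156 bp and 3.63 kb (chr15:74676204-74677359), and that given to Egr2 1232 bp and 51.9 kb (chr10:67482312-67483543). The right peak given to Jund was 1692 bp wide and 5.95 kb from its start (chr8:70691313-70693004). Bdnf, a neurotrophin, had 15 peaks in each list, adding to 39.7 kb left and 32.2 kb right, and Nr4a3, a nuclear receptor, had 34.7 and 24.7 kb. Egr3 had 24.7 and 15.8 kb, and Jun 21.6 and 27.2 kb. Of the 14 genes in both, 12 had more on the left, with a median ratio of 1.48, beside 55.0% and 1.07 over all genes in both lists. The count was 9 of 10 on chromosomes 1 to 14, with a median ratio of 1.38, beside 59.5% and 1.12 over all genes there.

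Synaptic scaffold and adhesion genes also had more on the left in most members. Of the 20 listed, 18 were in both lists, and Shank1 (2 peaks, 2.91 kb) and Nrxn2 (2 peaks, 2.38 kb) in the left alone, beside 63.3 and 26.7% of all genes. Of the 18, 13 had more on the left, with a median ratio of 1.28, beside 55.0% and 1.07 over all genes in both lists. Within chromosomes 1 to 14 the count was 11 of 14, with a median ratio of 1.44, beside 59.5% and 1.12 over all genes there. Dlg2 led with 141 kb left and 55.2 kb right, then Dlgap1 (84.2 and 64.2 kb), Nrxn3 (70.5 and 56.2 kb) and Nlgn1 (67.3 and 63.3 kb). Homer1, a postsynaptic scaffold, had 9 left peaks of 11.7 kb and 1 right peak of 1.28 kb.

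Axon guidance genes were in both lists in 28 of the 30 genes listed, beside 63.3% of all genes, with Ephb1 (1.92 kb, at its promoter) in the left alone and Sema3d (1.74 kb) in the right alone, and 3 more of the 33 were in neither. Their summed widths were 655 kb left and 606 kb right. More on the left was seen in 16 genes and more on the right in 12, with a median ratio of 1.04, beside 55.0% and 1.07 over all genes in both lists. Left was greater in 14 of 19 genes on chromosomes 1 to 14, with a median ratio of 1.15, beside 59.5% and 1.12 over all genes there. The greatest were Slit3 (107 and 85.2 kb), Epha7 (89.2 and 79.2 kb), Nrp2 (70.7 and 67.1 kb) and Unc5c (42.2 and 36.8 kb). Plxna2, a semaphorin receptor, had 13 left peaks of 22.1 kb and 1 right peak of 4.44 kb.

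Of 27 genes of histone acetylation, 11 were in both lists, Sirt1, a deacetylase (1.27 kb), in the left alone, and 15 in neither, among them Crebbp and Ep300. Over all genes listed, 63.3% were in both and 26.7% in the left alone. Hdac9 led with 81.2 kb left and 59.3 kb right, followed by Kat6b (14.2 and 9.68 kb), Hdac4 (9.73 and 13.0 kb) and Hdac11 (5.76 and 6.81 kb). Of 53 ribosomal protein genes, which are active in all cells, 15 were in both lists, 12 in the left alone, none in the right alone and 26 in neither. Among the 12 were Rpl3, Rpl13, Rpl19, Rpl23, Rpl24, Rpl37, Rplp2, Rps3, Rps15, Rps21 and Rpsa, and each of the 12 had 1 peak of 0.706 to 1.83 kb. A left promoter peak was held by 23 of the 53 and a right one by 11, with 9 holding both. Over all genes, promoter peaks gave 2722 genes in the left list alone, 1072 in the right alone and 3742 in both. The greatest widths among ribosomal protein genes were at Rps24 (28.8 kb left, 21.9 kb right), Rps23 (15.4 and 6.55 kb), Rps29 (1.85 and 10.2 kb) and Rpl30 (3.16 and 9.82 kb). Few of these peaks were at promoters: at Rps24 0 of 15 left and 1 of 12 right, and at Rps23 3 of 9 and 0 of 4. At Rps29 it was 0 of 1 and 0 of 4, and at Rpl30 0 of 3 and 1 of 4. Of the 27 ribosomal protein genes listed, 12 were thus in the left list alone, beside 26.7% of all genes.

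**Figure D5:**
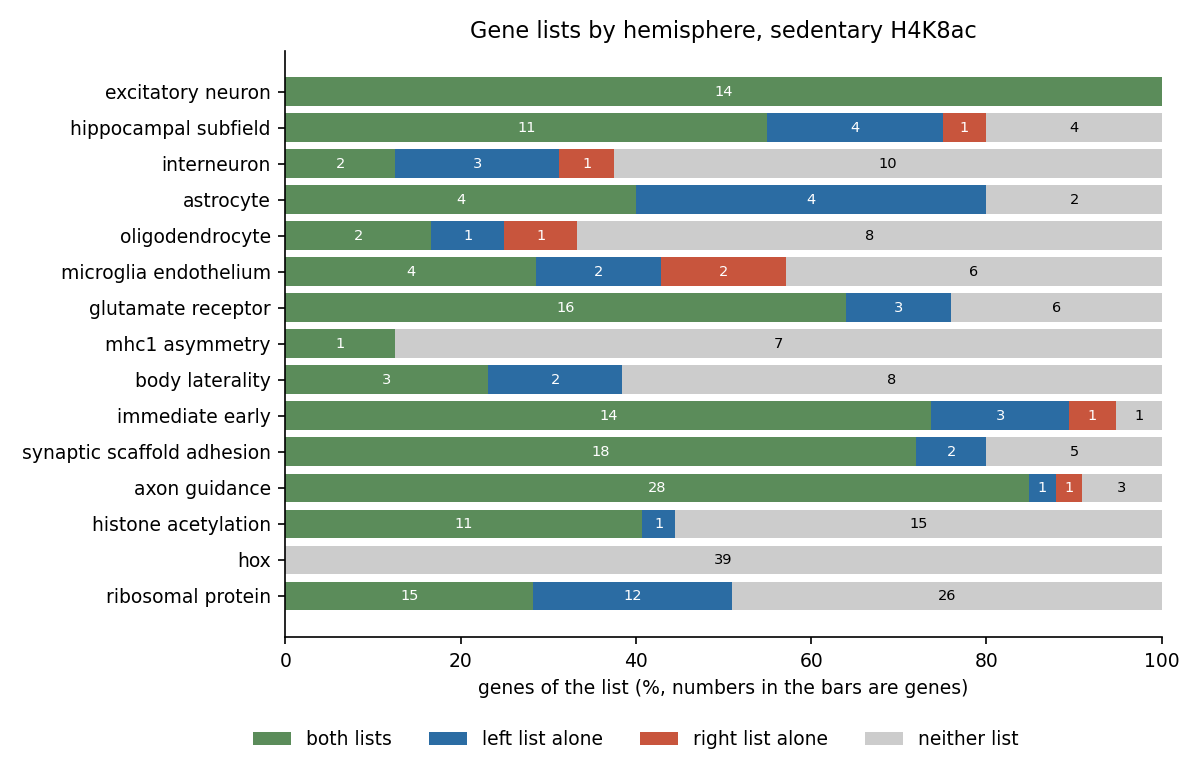
Share of the genes of each list found in both sedentary H4K8ac lists, in the left or the right list alone, or in neither, with numbers of genes in the bars. All 14 excitatory neuron markers are in both lists, and 12 of 53 ribosomal protein genes are in the left list alone with none in the right list alone.

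Other mice gave a readout that the comparison of hemispheres did not use. Peaks found in both hemispheres were found again in sedentary SIT mice in 64.0% of left peaks (63.3 to 64.7%) and 65.6% of right peaks (64.9 to 66.3%). Left peaks alone were found there in 22.1% (21.6 to 22.7%) and right peaks alone in 34.9% (33.9 to 35.9%). In exercised SIT mice, whose list is the longest, the shares were 82.9 and 84.3% for overlapped left and right peaks, 35.6% for left peaks alone and 52.0% for right peaks alone. These shares varied with width. Among peaks of 2500 to 5000 bp on chromosomes 1 to 14, the sedentary SIT list held 50.7% of left peaks alone (47.4 to 54.0%) and 49.9% of right peaks alone (45.7 to 54.1%), against 79.0 and 81.0% of overlapped left and right peaks. Below 1500 bp it held 17.1% of left peaks alone (16.4 to 17.8%) and 29.3% of right peaks alone (27.4 to 31.4%). H3K27me3, a mark of repressed genes, overlapped between 0.0806 and 0.919% of the peaks of any of the 4 sets in any of its 6 lists.

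Peaks of one hemisphere were also looked for in the same and the opposite hemisphere of exercised mice, which are other animals and had a running wheel. Per the study's methods, some exercised H4K8ac samples of the separate isolation, and a SIT one, were left out. The exercised lists of the separate isolation are shorter, with 12168 left and 13715 right peaks. The exercised left list held 43 peaks on chromosome 19 and 1 on X. Left peaks alone were overlapped by exercised left peaks in 9.51% (9.11 to 9.93%) and by exercised right peaks in 10.4% (9.97 to 10.8%). Right peaks alone were overlapped by exercised right peaks in 15.4% (14.6 to 16.1%) and by exercised left peaks in 13.53% (12.8 to 14.3%), and on chromosomes 1 to 14 in 13.7 and 12.2%. Of the 3032 left genes, 248 were in the left list alone in exercised mice and 401 in the right list alone. Of the 1130 right genes, 161 were in the right list alone and 122 in the left list alone. The odds ratio for the same hemisphere was 0.816 over genes, where 1 means no tie, 0.873 on chromosomes 1 to 14, and 1.04 when regions took the place of genes. It was a description with no test, since genes are not replicates.

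Of all 3032 left genes 74.3%, and of the 1130 right genes 69.3%, were in neither exercised list. Among genes on the same side in both conditions, the leading left ones by summed width were Gabra5, Raph1, Arid1b, Rap1gds1 and Rab11fip4, a regulator of recycling endosomes with 4 sedentary left peaks adding to 9.05 kb. The leading right ones were Vmn2r7, Fundc1, Gm1720 (6.05 kb), Fbn2, a fibrillin of the extracellular matrix (5.61 kb), and Mir1895 (5.59 kb). Of these right genes 3 lay on chromosomes 18 and X, and 2 of them, Fundc1 and Gm1720, on X, where the left lists held 51 sedentary peaks and 1 exercised peak.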

How the data were processed

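H4K8ac CUT&RUN libraries came from tagged hippocampal nuclei. Per the submitters' processing notes and the study's methods, the authors checked reads with FastQC 0.11.9, aligned them to mm10 with Bowtie2 2.4.1, called peaks with SEACR and annotated them with ChIPseeker 1.8.6. The deposited lists hold other measures than signal: the start, end and width of each peak in bp, its annotation class and its distance to the nearest start. How libraries were combined into 1 list per group is not given in the sources used here, and the depth behind each list is unknown. Each sample's group came from the labels, with 3 left and 3 right samples, and the hemisphere cannot be told apart from the mice that gave it.

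Deposited starts count from 0, so 1 was added. Peaks were shared when at least 1 base overlapped. Overlapping peaks of both lists were joined into regions, and a gene was listed where a peak bore its symbol. Peaks of 5000 bp or more were called broad. Intervals, of the Wilson kind for shares and symmetric for differences of shares, cover 95% and counting error only. Since each list is 1 value, no test was run and no p-value is given. Python 3.11.15, numpy 2.4.6, pandas 2.3.3, scipy 1.17.1 and matplotlib 3.10.9 were used, and the overlap and interval functions were checked on simulated data.

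Genes were named by rule: the 10 of each status with the greatest summed width, the 5 widest peaks of each list with no peak of the other within 10000 bp, the 5 widest regions of both, the 5 leading genes on the same side in sedentary and exercised lists, the 5 greatest differences in each direction, every member of gene lists of 15 or fewer, and of longer lists the members in one hemisphere plus 4 with the greatest widths. Other genes named, the greatest differences within chromosomes 1 to 14 among them, were chosen after their values were seen. The comparison and the gene lists were chosen with earlier results of these data known. Alternatives were reciprocal overlap, a 1000 bp margin, the widest 50% of peaks, equal numbers of peaks, promoter peaks alone, genes with several peaks, and autosomes alone. Splitting the chromosomes after 14, and leaving out genes whose peaks overlap the other list, were added after seeing the data. Some genes that the rule names are not reported here. Promoter windows and genome sequence came from RefSeq GRCm38.p6.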

Additional observations from a re-analysis of the deposited data

Results flagged for a closer look

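The number and width of peaks pointed one way in sedentary mice and the other way in exercised mice. Each list is 1 value per group, so the difference between conditions was not tested. Per the study's methods, some exercised H4K8ac samples of the separate isolation were left out. The left list held 11266 more peaks than the right in sedentary mice (36425 against 25159), and left minus right was -1547 in exercised mice (12168 against 13715). The median left peak was narrower in sedentary mice, with a left-minus-right difference of -427 bp, and wider in exercised mice, by 203.5 bp. The promoter share, left minus right, was 0.204 points in sedentary mice, with a counting interval of -0.484 to 0.892 that holds 0, and -1.25 points in exercised mice. Introns held more left than right peaks in both conditions, by 4.37 and 0.926 points, and distal intergenic DNA fewer, with differences of -3.88 and -0.747 points.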

How the results depend on the processing

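Of 78 values recomputed for 12 results, 39 stayed within the counting interval or 1.5 times the count, 39 moved beyond it and 0 changed the direction of a called value. With reciprocal overlap of 50%, 29.0% of left and 42.0% of right peaks were shared, and 67.3% of left and 61.2% of right broad peaks. With a margin of 1000 bp the shares were 51.2% and 68.6%. Among the widest 50% of peaks they were 43.0% and 60.01%, the Jaccard index (shared over all covered bases, 0.306 over all peaks) was 0.291, the promoter, intron and distal differences were 1.93, 1.27 and -2.43 points, and 4203 genes were in both lists. At equal numbers of peaks the shares were 54.5% and 54.4%, the intron difference 2.39 points, and 1923 left and 1924 right genes stood alone. Counted in bases, the intron difference was 3.01 points. At 10000 bp or more, 100% of broad peaks of either list were shared. Promoter peaks alone gave 3742 genes in both lists. With 2 or more peaks required, 718 left, 125 right and 3568 shared genes were left.

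Splits of the chromosomes were added after seeing the data. On chromosomes 1 to 14 the shares were 47.2% and 67.6%, the right broad share 99.0% and the Jaccard index 0.325. On chromosomes 15 to 19 and X the shares were 40.6% and 46.4%, the broad shares 100% left and 91.4% right, the Jaccard index 0.188, the intron difference 6.27 points, the promoter difference -0.0237 points, the genes 537 left, 367 right and 1145 in both, and the odds ratio of the same hemisphere 0.599. The cause of these shifts was not tested. The gene counts there are out of 2049 genes in either list, beside 9301 on chromosomes 1 to 14. No paired analysis was possible because each list pools the samples of its group, and for the same reason no replicate could be left out. Without depth, absence from a list does not show absence of the mark.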

Other observations

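Gene families taken by the start of their symbols, after values were seen and with no test, are given here by how many members were in both hemispheres. Cadherins were in both lists in 16 of 18 genes listed, with Cdh26 in the left alone and Cdh15 in the right alone, and their peaks added to 409.0 kb left and 408.7 kb right. Genes whose symbols start with Kcn, mostly potassium channel subunits, were in both in 51 of 62, with 9 in the left alone and Kcnj4 and Kcnk13 in the right alone. Calcium channel subunits were in both in 16 of 21, with 285 kb left and 180 kb right, and Cacna1f and Cacng8 were in the right alone.

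Sodium channel subunits were in both in 6 of 10, with 4 in the left alone, and microRNA genes in 178 of 310, with 99 in the left alone and 33 in the right alone. Of 47 mitochondrial ribosomal protein genes, 22 were in both, 17 in the left alone and 8 in the right alone. Of 41 odorant receptor genes, which are silent in most neurons and were listed as the nearest gene, 16 were in both, 17 in the left alone and 8 in the right alone. The median gene span was 0.0825 kb in microRNA genes, 0.96 kb in odorant receptors, 111 kb in sodium channel subunits, 8.72 kb in mitochondrial ribosomal proteins and 180 kb in cadherins. Over all genes, 63.3% were in both, 26.7% in the left alone and 9.96% in the right alone.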
